A study of Mus musculus with 16 samples.

Results

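Endothelial cells line the blood vessels of muscle, and 9 genes widely used to mark them were followed together with the apelin receptor gene Aplnr. The 10 genes were Pecam1, Vwf, Cdh5, Kdr, Flt1, Tek, Tie1, Egfl7, Emcn and Aplnr. They were chosen by name, as rows whose Ensembl identifier carries 1 of these symbols, and all 10 were present among the 12021 genes of the deposited table. Kdr, Flt1, Tek and Tie1 encode receptor tyrosine kinases, Cdh5 and Pecam1 adhesion proteins of the junctions between endothelial cells, and Emcn a sialoglycoprotein of capillary and venous endothelium. Vwf and Egfl7 encode secreted proteins.

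Vessels are kept and remodelled by a few ligand and receptor systems. Vascular endothelial growth factor (VEGF) signals mainly through the receptor encoded by Kdr, while the receptor encoded by Flt1 binds the same ligand with higher affinity and signals weakly, so that it is often described as a decoy. Angiopoietins act on the receptor encoded by Tek, with Tie1 as its partner, and apelin acts on the G protein-coupled receptor encoded by Aplnr, which is expressed in endothelium and is known in mouse as a marker of veins and of sprouting vessels.

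The tissue was tibialis anterior, a fast-twitch leg muscle, of mice with cancer cachexia (tumour-associated wasting) or of controls, and ribosomal RNA was removed before sequencing. There were 8 groups of 2 libraries: a control and a cachectic group for each of the models KPP and LLC (both C57BL/6J mice), C26 (CD2F1 mice) and KPC (mixed strain). C26 and LLC are names in general use for a transplanted colon carcinoma and the Lewis lung carcinoma. The sources used here do not give age, sex, alleles, tumour stage or what the controls received, nor whether 2 libraries of a group were separate animals, so p-values measure the spread between these libraries. Model and strain cannot be told apart.

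Depth ran from 28584279 to 46972882 reads per library, summed over all genes of the table. Values are the deposited log2 RPM, where RPM is the reads of a gene scaled to a library of 1000000 reads, and a change is the cachectic mean minus the control mean ± SE from limma, with n = 2 libraries per group. A gene was called where its p, adjusted over all genes by the Benjamini-Hochberg method, was under 0.05. As a check of the tissue label, 5 markers of skeletal muscle fibres summed to between 241000 and 303000 RPM in every library. KPC cachectic 2 stood close to its controls, with an SD of 0.276 for its log2 differences from the KPC control mean over all genes, against 0.555 for KPC cachectic 1. LLC cachectic 1 stood farthest from its controls, at 0.722 against 0.486 for LLC cachectic 2. The median change of all genes was 0.00 in KPP, 0.01 in KPC, 0.28 in C26 and 0.10 in LLC.

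Per kilobase of annotated exons, the endothelial genes differed widely in level in control muscle. RPKM (RPM per kilobase of the exons annotated in GENCODE M21) had a median over the 8 control libraries of 19.0 for Cdh5, with a range of 16.3 to 23.1. Pecam1 followed at 13.8, Egfl7 at 12.9 and Kdr at 10.2. Flt1, Tie1 and Tek lay together at 7.56, 7.33 and 7.04, with ranges that overlapped. The lowest were Aplnr at 3.06 (1.87 to 5.27), Emcn at 2.59 (2.03 to 3.15) and Vwf at 1.94 (1.3 to 2.21). Neighbours in this order had overlapping ranges, except Tek and Aplnr, where the lowest Tek value was 5.48. The length joins all annotated exons of a gene, 16064 bases for Vwf and 13504 for Flt1, and is not that of 1 transcript. The order depends on this choice.

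**Figure D1:**
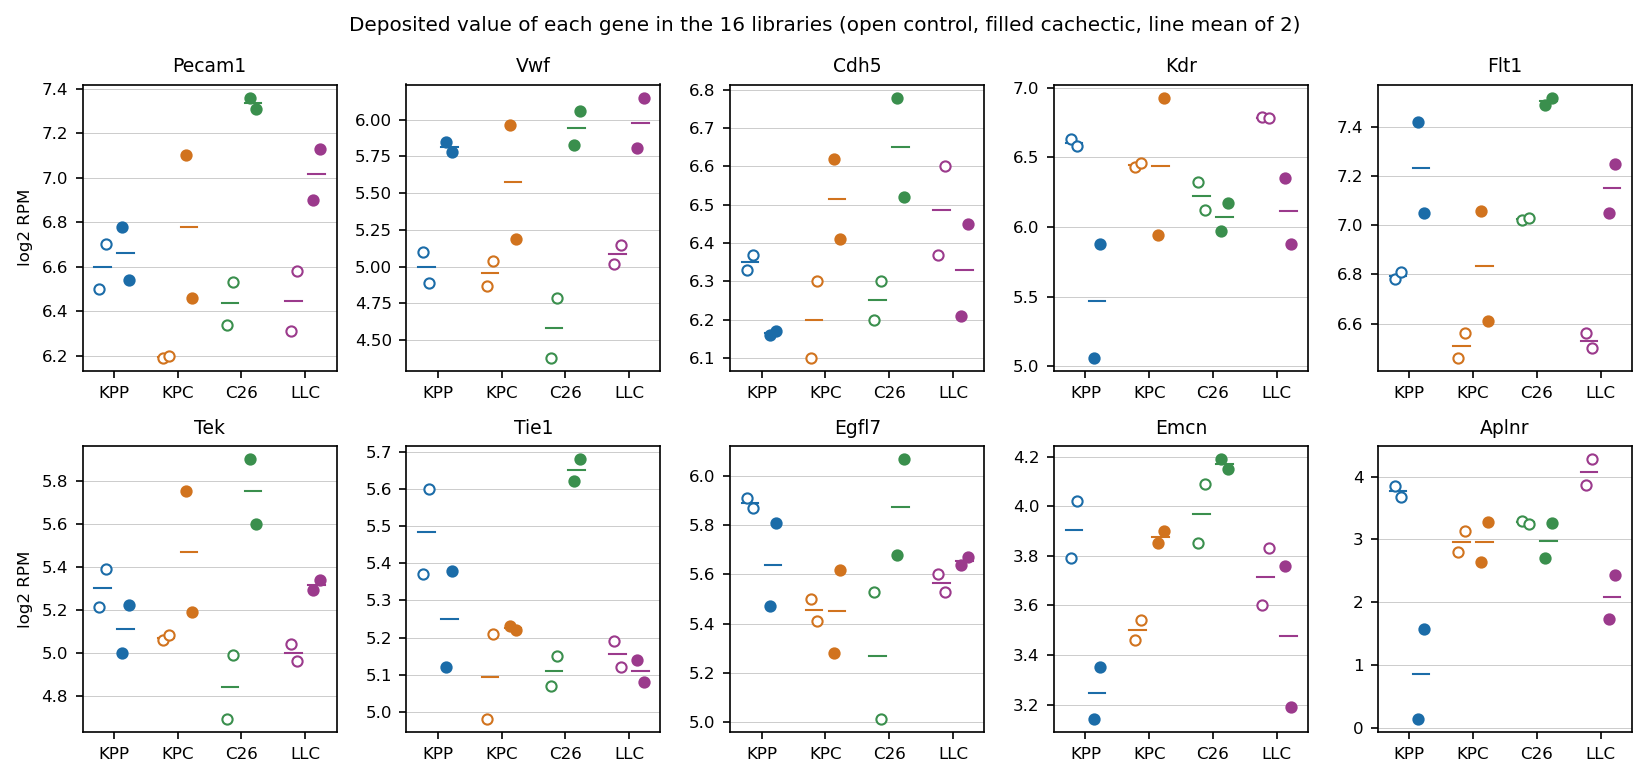
Deposited values (log2 RPM, vertical axes that differ between panels) of the 10 genes in the 16 libraries by model, with open points for controls, filled points for cachectic libraries and lines for the mean of 2. Aplnr reached 0.13 in KPP cachectic 1, and Vwf lay higher in both cachectic libraries than in both controls in each of the 4 models.

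Aplnr fell in KPP and in LLC muscle and was near its control level in KPC. In KPP it was 3.85 and 3.68 in the controls and 0.13 and 1.57 in the cachectic libraries. These values correspond to 547 and 367 reads in the controls against 51 and 88 reads, so all 4 libraries lay well above a count of 0. The groups did not overlap, and the change of -2.92 ± 0.39 (7.57-fold lower, adjusted p = 0.01) was the largest of any of the 10 genes in any model. The cachectic pair differed more from each other than the controls did, with an SD of 1.01 against 0.12. Aplnr lies on chromosome 2 between 85136225 and 85139923 (GRCm38, plus strand), and no exon of another annotated gene overlaps its exons.

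In LLC, Aplnr was 3.87 and 4.28 in the controls and 1.73 and 2.43 in the cachectic libraries. The groups again did not overlap, and the change was -2.00 ± 0.39 (4-fold lower, adjusted p = 0.0183). In C26 the controls held 3.30 and 3.24 and the cachectic libraries 2.70 and 3.26. Cachectic 2 thus lay between the controls, and the change of -0.29 ± 0.39 (adjusted p = 0.582) had a 95% interval of -1.15 to 0.57. In KPC the values were 2.80 and 3.13 in controls against 2.64 and 3.28, with a change of 0.00 ± 0.39 (adjusted p = 0.998) and an interval of -0.86 to 0.85.

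The calls for Aplnr rested on both controls of each model. Without KPP control 1 the change was -2.83 (adjusted p = 0.0809) and without KPP control 2 it was -3.00 (adjusted p = 0.0661). In LLC the call was lost without control 1 (adjusted p = 0.0757), control 2 (adjusted p = 0.187) or cachectic 1 (-1.65, adjusted p = 0.125). The differences between models did not pass either: an F test of the 4 effects gave an adjusted p of 0.103 (unadjusted 0.000471), and KPP minus C26 was -2.63 ± 0.56 (adjusted p = 0.0648). That F test called 0.116% of all genes and 0 of the 10, and it called Aplnr in 4 of the 16 fits with 1 library left out (KPP cachectic 2, KPC cachectic 1, LLC cachectic 1 or LLC cachectic 2).

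Ordered by group mean, Aplnr was highest in LLC controls (4.08 ± 0.29, SD, n = 2) and KPP controls (3.77 ± 0.12), followed by C26 controls (3.27 ± 0.04). C26 cachectic (2.98 ± 0.40), KPC control (2.96 ± 0.24) and KPC cachectic muscle (2.96 ± 0.45) came next, and each of these groups overlapped its neighbour in the order. LLC cachectic (2.08 ± 0.50) and KPP cachectic muscle (0.85 ± 1.01) were lowest and lay apart from each other and from the rest. The control groups did not differ by the F test (adjusted p = 0.311, unadjusted 0.0612). In bulk muscle, fewer cells of a type and less RNA per cell cannot be told apart, for Aplnr and for the other genes.

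Both VEGF receptor genes are on chromosome 5, and over the 4 models Flt1 rose and Kdr fell. Flt1, between 147561604 and 147726011 on the minus strand, had higher values in cachectic libraries of all 4 models without overlap. In LLC it was 6.56 and 6.50 in controls and 7.05 and 7.25 in cachectic libraries, a change of 0.62 ± 0.16 (adjusted p = 0.0411). In C26 it was 7.02 and 7.03 against 7.49 and 7.52, a change of 0.48 ± 0.16 (adjusted p = 0.0415). With libraries centred on their median gene, the C26 change was 0.24 and the call was lost (adjusted p = 0.268). In KPP the values were 6.78 and 6.81 against 7.42 and 7.05 (0.44 ± 0.16, adjusted p = 0.138), and in KPC 6.46 and 6.56 against 7.06 and 6.61 (0.33 ± 0.16, adjusted p = 0.577). Leaving out any 1 of the 4 C26 libraries, or LLC control 1, LLC control 2 or LLC cachectic 1, took the call away, with adjusted p of up to 0.16 in C26 and 0.224 in LLC. The LLC call was also lost under quantile normalization (0.43, adjusted p = 0.0982), without a mean-variance trend (adjusted p = 0.0521) and with only LLC libraries (adjusted p = 0.18).

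Kdr, between 75932827 and 75978458 on the minus strand, was lower in KPP, at 5.06 and 5.88 in cachectic libraries against 6.63 and 6.58 in controls. The groups lay apart, yet the change of -1.13 ± 0.30 did not pass (adjusted p = 0.0638). LLC cachectic libraries held 6.35 and 5.88 against 6.79 and 6.78 (-0.67 ± 0.30, adjusted p = 0.158). In C26 the values were 5.97 and 6.17 against 6.32 and 6.12 (-0.15 ± 0.30, adjusted p = 0.722). In KPC they were 5.94 and 6.93 against 6.43 and 6.46 (-0.01 ± 0.30, adjusted p = 0.996), so that the cachectic libraries stood on either side of both controls. Averaged over the 4 models, Kdr fell by 0.49 ± 0.15 (adjusted p = 0.0204) and Flt1 rose by 0.47 ± 0.08 (adjusted p = 0.00146).

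The sequences at the starts of both genes are shown because the genes encode receptors of the same ligand. Whether these sequences or their motifs bear on the changes of either gene was not tested. Each window runs from 250 bases before to 50 after the RefSeq start (GRCm38.p6), is written 5′ to 3′ on the gene's own strand, and has matches to the ETS-factor motifs AGGAAG and CCGGAAG, on either strand, in capitals.
Flt1 (chr5:147725962-147726261, minus strand): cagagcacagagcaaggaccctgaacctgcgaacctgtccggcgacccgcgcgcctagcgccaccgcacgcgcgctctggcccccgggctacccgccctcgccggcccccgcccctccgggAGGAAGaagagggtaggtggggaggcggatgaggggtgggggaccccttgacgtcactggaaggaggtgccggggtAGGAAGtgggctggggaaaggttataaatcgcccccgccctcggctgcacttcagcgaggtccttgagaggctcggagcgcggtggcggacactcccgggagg
Kdr (chr5:75978406-75978705, minus strand): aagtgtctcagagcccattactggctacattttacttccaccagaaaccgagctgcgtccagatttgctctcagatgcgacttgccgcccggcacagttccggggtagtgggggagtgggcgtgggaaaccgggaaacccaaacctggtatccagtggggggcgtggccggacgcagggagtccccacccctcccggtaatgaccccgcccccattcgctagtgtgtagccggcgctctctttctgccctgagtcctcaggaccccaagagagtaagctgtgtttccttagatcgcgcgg

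The Flt1 window held 2 matches to AGGAAG and the Kdr window 0, and neither held CCGGAAG. Of 32851 mouse promoter windows of the same length, 35.4% held AGGAAG and 8.86% held CCGGAAG. The GATA-factor motif AGATAA was in 11.2% of all windows and the forkhead motif GTAAACA in 3.65%, and neither was in the Flt1 or Kdr window. The table gave windows for 6 of the 10 genes (Flt1, Kdr, Tek, Tie1, Emcn and Egfl7, the last with 3), and 5 of these 8 windows held an ETS motif, against 41.2% of all windows. The Flt1 window had a G and C content of 70.7% and the Kdr window of 60.7%.

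Inside a library, the difference between 2 genes does not depend on a single factor that scales the whole library. Flt1 minus Kdr was 0.15 and 0.22 in KPP controls and 2.36 and 1.16 in KPP cachectic libraries. In LLC it went from -0.23 and -0.28 to 0.70 and 1.37, and in C26 from 0.70 and 0.92 to 1.52 and 1.35. In KPC the controls held 0.03 and 0.10, cachectic 1 held 1.13 and cachectic 2 held -0.32. Thus 7 of the 8 cachectic libraries lay above both controls of their model, and KPC cachectic 2, the library closest to its controls over all genes, lay below them.

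**Figure D2:**
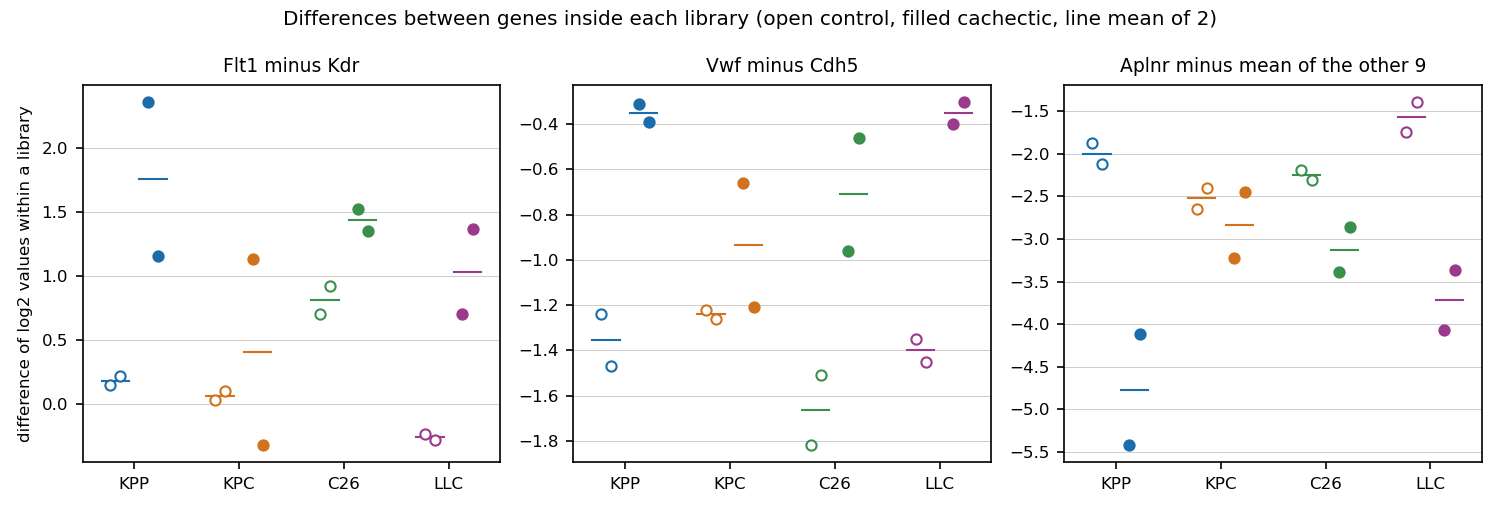
Differences of log2 values between genes inside each library (vertical axes, log2 units) for Flt1 minus Kdr, Vwf minus Cdh5 and Aplnr minus the mean of the other 9 genes, by model, with open control points, filled cachectic points and lines for the mean of 2. Flt1 minus Kdr rose to 2.36 in KPP cachectic 1, and Aplnr minus the other 9 fell to -5.42 in the same library.

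The angiopoietin receptor gene Tek rose in C26, where it was 4.69 and 4.99 in controls and 5.90 and 5.60 in cachectic libraries. The change was 0.91 ± 0.18 (adjusted p = 0.00763), was still called after centring, and was lost without C26 control 1 (0.76, adjusted p = 0.0776). In KPP, cachectic values of 5.0 and 5.22 overlapped control values of 5.21 and 5.39 (-0.19 ± 0.18, adjusted p = 0.584). In KPC, Tek was 5.06 and 5.08 in controls and 5.75 and 5.19 in cachectic libraries (0.40 ± 0.18, adjusted p = 0.576), and the change was 0.68 (adjusted p = 0.0363) without KPC cachectic 2 and 0.12 (adjusted p = 1.0) without KPC cachectic 1. In LLC the change was 0.32 ± 0.18 (adjusted p = 0.256).

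Tie1, the partner of Tek, was called in C26 as well. It was 5.07 and 5.15 in controls and 5.62 and 5.68 in cachectic libraries, a rise of 0.54 ± 0.13 (adjusted p = 0.0151) that was lost after centring (0.30, adjusted p = 0.106). It was also lost without C26 control 1 (0.50, adjusted p = 0.104), control 2 (0.58, adjusted p = 0.0689) or cachectic 2 (0.51, adjusted p = 0.0766). Tie1 was -0.24 ± 0.13 in KPP, 0.13 ± 0.13 in KPC and -0.04 ± 0.13 in LLC, none of them called. The KPP minus C26 difference was -1.10 ± 0.26 for Tek (adjusted p = 0.0746) and -0.78 ± 0.19 for Tie1 (adjusted p = 0.0781), neither past the threshold, which 0.299% of all genes passed for that pair.

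Vwf, which encodes the clotting protein that endothelial cells store in granules, lay higher in cachectic muscle of each model. Its values were 5.10 and 4.89 in KPP controls against 5.85 and 5.78 in cachectic libraries. They were 4.87 and 5.04 against 5.96 and 5.19 in KPC, 4.38 and 4.79 against 5.83 and 6.06 in C26, and 5.02 and 5.15 against 5.81 and 6.15 in LLC. Every one of the 8 cachectic libraries lay above all 8 control libraries. The margin was small, with KPC cachectic 2 at 5.19 and LLC control 2 at 5.15. This separation was not counted over all genes. The change passed in C26 (1.36 ± 0.22, adjusted p = 0.00408) and LLC (0.90 ± 0.22, adjusted p = 0.0386), and not in KPP (0.82 ± 0.22, adjusted p = 0.07) or KPC (0.62 ± 0.22, adjusted p = 0.547).

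Averaged over the models Vwf rose by 0.92 ± 0.11 (1.90-fold, adjusted p = 0.000394), and with any 1 library left out by 0.83 to 1.02. The C26 call was lost without C26 control 1 (1.15, adjusted p = 0.0532). The LLC call was lost without any 1 of its 4 libraries, with adjusted p of 0.0543 to 0.193, and under quantile normalization (0.73, adjusted p = 0.063). The KPC change was 1.00 (adjusted p = 0.015) without KPC cachectic 2 and 0.24 (adjusted p = 1.0) without KPC cachectic 1. Vwf is also made by megakaryocytes and carried by platelets. Of 5 platelet markers 1, Pf4, was analysed here. It summed to 0.634 to 2.75 RPM in controls and 1.02 to 4.48 in cachectic libraries, and its change was 1.32 ± 0.41 in C26 (adjusted p = 0.0332, or 0.0845 after centring). It was 0.94 ± 0.41 in LLC (adjusted p = 0.153), 0.06 ± 0.41 in KPP (adjusted p = 0.953) and -0.07 ± 0.41 in KPC (adjusted p = 0.966). The part of platelets in the Vwf values was not tested.

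Pecam1, an adhesion molecule of endothelial junctions that leukocytes and platelets also carry, rose in C26. It was 6.34 and 6.53 in C26 controls and 7.36 and 7.31 in cachectic libraries (0.90 ± 0.19, adjusted p = 0.00946), a call that held after centring and was lost without C26 control 1 (0.80, adjusted p = 0.083). It lay higher without overlap in LLC (0.57 ± 0.19, adjusted p = 0.0808) and KPC (0.59 ± 0.19, adjusted p = 0.547) without passing. Its KPC change was 0.91 (adjusted p = 0.0113) without KPC cachectic 2 and 0.26 (adjusted p = 1.0) without KPC cachectic 1. In KPP the control values of 6.50 and 6.70 overlapped the cachectic values of 6.78 and 6.54.

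Markers of macrophages and neutrophils, leukocytes that can also carry Pecam1, were higher as well in C26. The 9 macrophage markers summed to 95.3 and 115 RPM in C26 controls and 255 and 264 in cachectic libraries, and 8 of the 9 rose in C26 (5 after centring). In KPP they summed to 58.5 and 94.6 against 77.1 and 95.1, in KPC to 98.8 and 139 against 148 and 190, and in LLC to 59.2 and 75.4 against 82 and 134. All 9 had positive changes in KPC (0 called) and in LLC (1 called). Of all genes, 23.2% were called higher in C26 (6.99% after centring) and 3.42% in LLC. Positive changes were found for 52.2% of all genes in KPC and 59.4% in LLC. Of 4 neutrophil markers, S100a9 and Csf3r were analysed here. They had positive changes in all 4 models, and both rose in C26 (5.05 ± 1.13 and 3.39 ± 0.57) and in LLC (6.19 ± 1.13 and 2.17 ± 0.57). In KPP, where 0.707% of all genes were called higher, S100a9 rose (5.4 ± 1.13, adjusted p = 0.0435), and both were called after centring. In KPC neither of these markers was called, where 0% of all genes were. Their sum was 0.37 to 1.01 RPM over all control libraries and 2.72 to 15 RPM over all cachectic libraries. The part of macrophages and neutrophils in the Pecam1 result was not tested.

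Cdh5, which encodes VE-cadherin of the junctions between endothelial cells, was called in none of the models. Its change was 0.40 ± 0.14 in C26 (adjusted p = 0.0529), 0.31 ± 0.14 in KPC (adjusted p = 0.576), -0.16 ± 0.14 in LLC (adjusted p = 0.474) and -0.19 ± 0.14 in KPP (adjusted p = 0.491). Over the 4 models the mean was 0.09 ± 0.07, with a 95% interval of -0.06 to 0.25. Vwf minus Cdh5 inside a library was -1.82 to -1.22 in the 8 controls and -1.21 to -0.30 in the 8 cachectic libraries. KPC cachectic 2, at -1.21, was the cachectic library nearest to the controls.

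Emcn was low and went different ways. In KPP it was 3.79 and 4.02 in controls and 3.14 and 3.35 in cachectic libraries (-0.66 ± 0.18, adjusted p = 0.0721). In KPC the cachectic libraries lay higher, at 3.85 and 3.90 against 3.46 and 3.54 (0.38 ± 0.18, adjusted p = 0.577). In C26 its change of 0.19 ± 0.18 (adjusted p = 0.415) was -0.04 after centring, and in LLC it was -0.24 ± 0.18 (adjusted p = 0.379). The F test of the 4 effects gave an adjusted p of 0.181 for Emcn (unadjusted 0.00658), and called it in 2 of the 16 fits with 1 library left out (LLC cachectic 1 or LLC cachectic 2).

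Egfl7, which encodes a secreted matrix-bound protein of endothelium and hosts the microRNA miR-126, was 5.53 and 5.01 in C26 controls and 5.68 and 6.07 in C26 cachectic libraries. Its rise of 0.60 ± 0.19 in C26 (adjusted p = 0.0368) was lost after centring (0.36, adjusted p = 0.238) and without C26 control 1, control 2 or cachectic 2 (0.34 to 0.86). It was -0.25 ± 0.19 in KPP, 0.00 ± 0.19 in KPC and 0.09 ± 0.19 in LLC, none called. Exons of Egfl7 overlap those of Agpat2 and Mir126b on the other strand, and those of Gm20532 and Mir126a on the same strand. The sources used here do not give how strand was handled in counting, and the same-strand overlap remains under any strand setting. The Egfl7 values are therefore uncertain. The other 9 genes have no such overlap in GENCODE M21.

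**Figure D3:**
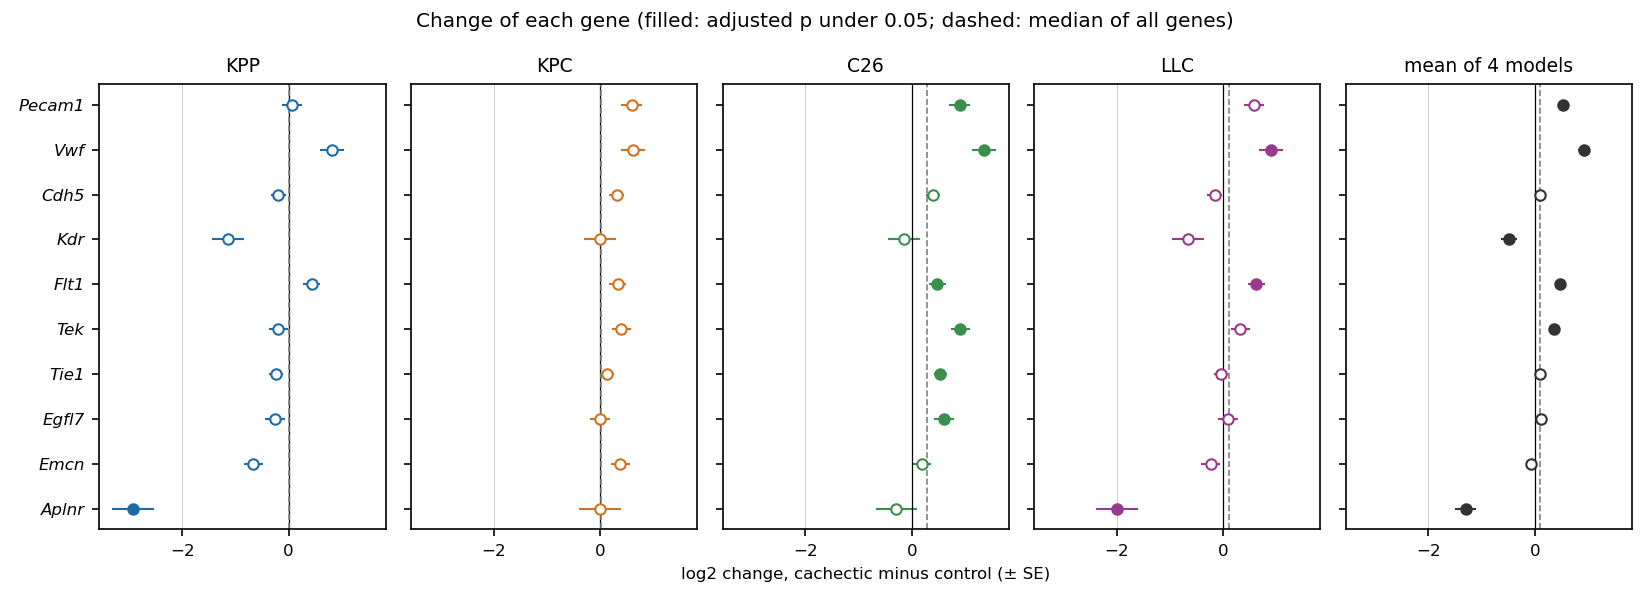
Log2 change of the 10 genes, cachectic minus control ± SE (horizontal axes), in each of the 4 models and for their mean, with filled points for adjusted p under 0.05 and a dashed line at the median of all genes. Aplnr lies at -2.92 in KPP and -2.00 in LLC and near 0 in KPC, whereas the C26 points lie mostly to the right of the dashed line at 0.28.

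By model, 1 of the 10 genes was called in KPP (Aplnr, lower), where 1.07% of all genes were called lower and 1.78% in either direction. None was called in KPC, where limma called 0% of all genes. There 3 of the 10 (Pecam1, Vwf and Tek, all higher) had an unadjusted p under 0.05, a share that was not counted over all genes. In C26, 6 were called, all higher (Pecam1, Vwf, Flt1, Tek, Tie1 and Egfl7), where 23.2% of all genes were called higher and 28.4% in either direction. With libraries centred, 3 of them (Pecam1, Vwf and Tek) were called higher in C26, against 6.99% of all genes. In LLC, Vwf and Flt1 were called higher and Aplnr lower, where 3.42% of all genes were called higher, 3.66% lower and 7.08% in either direction.

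Averaged over the 4 models, 6 of the 10 genes were called, where 41.1% of all genes were, 27.3% higher and 13.8% lower. Vwf, Pecam1 (0.53 ± 0.10, adjusted p = 0.00193), Flt1 and Tek (0.36 ± 0.09, adjusted p = 0.0089) rose. Aplnr (-1.3 ± 0.20, adjusted p = 0.000925) and Kdr fell. The same 6 were called with any 1 of the 16 libraries left out and under each other scaling tried. The median change of the 10 was -0.22 in KPP, 0.32 in KPC, 0.51 in C26 and 0.02 in LLC, beside medians of all genes of 0.00, 0.01, 0.28 and 0.10.

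Groups without overlap were common at 2 libraries against 2, and the 10 genes are read against that. In KPC, 7 of the 10 lay higher in both cachectic libraries than in both controls, where 15.8% of all genes did. In C26, 8 of the 10 did, where 59.6% of all genes did. In KPP, 2 lay higher and 5 lower, where 28.9% of all genes lay higher and 29.7% lower. In LLC, 5 lay higher and 2 lower, where 33.8% and 23.6% of all genes did.

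Among the 4 control groups, limma's F test called 0 of the 10 and 4% of all genes. Flt1 came nearest (adjusted p = 0.18), and 3 of the 10 (Flt1, Tie1 and Egfl7) had an unadjusted p under 0.05. For the difference between the 4 effects, 0 of the 10 and 0.116% of all genes were called. There 6 of the 10 (Cdh5, Tek, Tie1, Egfl7, Emcn and Aplnr) had an unadjusted p under 0.05. The share of all genes with an unadjusted p under 0.05 was not counted for either test, so the 3 and the 6 have no background to be read against.

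Aplnr was also set against the other 9 genes of the same library. Aplnr minus their mean was -1.88 and -2.12 in KPP controls and -5.42 and -4.12 in KPP cachectic libraries. In LLC it went from -1.74 and -1.39 to -4.07 and -3.36, and in C26 from -2.19 and -2.31 to -3.39 and -2.86. In KPC it was -2.65 and -2.40 against -3.22 and -2.45. Every cachectic library lay below both controls in KPP, LLC and C26, and KPC cachectic 2 lay between its controls. In C26 the mean of the other 9 itself rose, from 5.49 and 5.56 in controls to 6.09 and 6.12. Aplnr alone overlapped its controls there and was not called (-0.29 ± 0.39).

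The genes whose pattern was most like that of Aplnr were found by Pearson's r over the 16 libraries after the mean of each model was removed. They were Plxnd1 (r = 0.961), Tnfaip2 (0.94), Colgalt2 (0.937), Fscn1 (0.931) and Pcdh12 (0.926). The libraries share controls within a model and the genes were picked for the highest r, so these values are a description. Pcdh12, a protocadherin of endothelial cells, had changes of -1.89 in KPP, -0.57 in KPC, -0.61 in C26 and -1.37 in LLC. Plxnd1, a semaphorin receptor of endothelium, had changes of -0.85, -0.21, -0.17 and -0.57 in the same order.

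The genes most like the mean of the other 9 were Ggta1 (r = 0.931), Gm38070 (0.929), Elk3 (0.928), Caml (0.924) and Fli1 (0.923). Fli1, an ETS transcription factor of endothelial and blood cells, had changes of 0.05 in KPP, 0.58 in KPC, 0.96 in C26 and 0.20 in LLC. Elk3, another ETS factor, had changes of -0.33, 0.41, 0.76 and 0.16 in that order.

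Other genes of endothelial identity, 28 of 28 of them analysed, were mostly higher in C26. In C26, 18 rose and 0 fell (10 rose and 1 fell after centring), led by Plvap (2.23 ± 0.27), which encodes the diaphragm protein of fenestrated endothelium, Cyyr1 (1.36 ± 0.17), Adgrl4 (0.81 ± 0.12) and Ecscr (1.42 ± 0.24). In LLC, 5 rose and 0 fell, among them Clec14a (0.92 ± 0.19), Ly6c1 (1.04 ± 0.23), Eng (0.53 ± 0.12) and Adgrl4 (0.54 ± 0.12). In KPP, 0 rose and 1, Tmem204, fell (-0.97 ± 0.15, adjusted p = 0.0135). Of all genes, 23.2% were called higher in C26 (6.99% after centring), 3.42% higher in LLC and 1.07% lower in KPP. In KPC none was called, where 0% of all genes were. Positive changes there were found for 23 of the 28, and for 52.2% of all genes. Their median change was 0.02 in KPP, 0.30 in KPC, 0.79 in C26 and 0.36 in LLC.

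Of the ligands, apelin itself was not analysed here. Vegfa, the main ligand of both VEGF receptors, fell in C26 (-1.0 ± 0.26, adjusted p = 0.019) and was -0.66 ± 0.26 in LLC (adjusted p = 0.123), -0.07 ± 0.26 in KPP and -0.06 ± 0.26 in KPC. Vegfb, a ligand of the Flt1 receptor, fell in LLC (-0.84 ± 0.23, adjusted p = 0.0451), and Vegfc was -1.39 ± 0.32 in KPP without passing (adjusted p = 0.0507). Vegfd rose in C26 (1.78 ± 0.46, adjusted p = 0.0188) and LLC (2.24 ± 0.46, adjusted p = 0.0215). Nrp1, a co-receptor of VEGF, fell in KPP (-0.62 ± 0.12, adjusted p = 0.0364), and Flt4, the receptor of lymphatic endothelium, rose in C26 (0.52 ± 0.14, adjusted p = 0.0188), a call lost after centring (adjusted p = 0.147).

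Of the 7 listed VEGF ligands and other receptors, 3 rose and 1 fell in C26, 1 rose and 1 fell in LLC, and 0 rose and 1 fell in KPP. After centring, 1 rose (Vegfd) and 2 fell (Vegfa and Vegfb) in C26, and 1 rose (Vegfd) and 2 fell (Vegfb and Nrp1) in LLC. Over the 4 models 1 rose (Vegfd, 1.62 ± 0.23) and 4 fell (Vegfa, Vegfb, Vegfc and Nrp1, by 0.28 to 0.49). Of all genes, 23.2% were called higher and 5.12% lower in C26 (6.99% and 9.25% after centring). In LLC the shares were 3.42% and 3.66% (3.6% and 4.77% after centring). In KPP 1.07% were called lower, and over the 4 models 27.3% were called higher and 13.8% lower. Among the ligands of the Tek receptor, Angpt1, its agonist, fell over the 4 models by 0.42 ± 0.15 (adjusted p = 0.0434), and Angpt2, a context-dependent antagonist, was 0.06 ± 0.15 (adjusted p = 0.744).

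Vein, artery and capillary genes were followed separately, and their C26 counts stand beside 23.2% of all genes called higher there, or 6.99% after centring. Of all genes, 5.12% were called lower in C26 (9.25% after centring) and 3.42% higher in LLC. In either direction, 1.78% were called in KPP, 0% in KPC and 7.08% in LLC. Of 5 venous genes, 4 rose in C26 (3 after centring) and 0 were called in the other models, with Selp, the P-selectin of activated endothelium and platelets, at 2.94 ± 0.53 in C26. Of 7 arterial genes, 2 rose and 1 fell in C26 (1 and 1 after centring), and 2 rose in LLC, Hey1 (1.5 ± 0.25, adjusted p = 0.012) and Sema3g (1.12 ± 0.27, adjusted p = 0.0333). Of 8 genes of capillary lipid uptake, 3 rose in C26 (1, Cd36, after centring) and 1 in LLC. Cd36, the fatty acid transporter, rose in both, by 1.12 ± 0.18 and 0.80 ± 0.18.

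**Figure D4:**
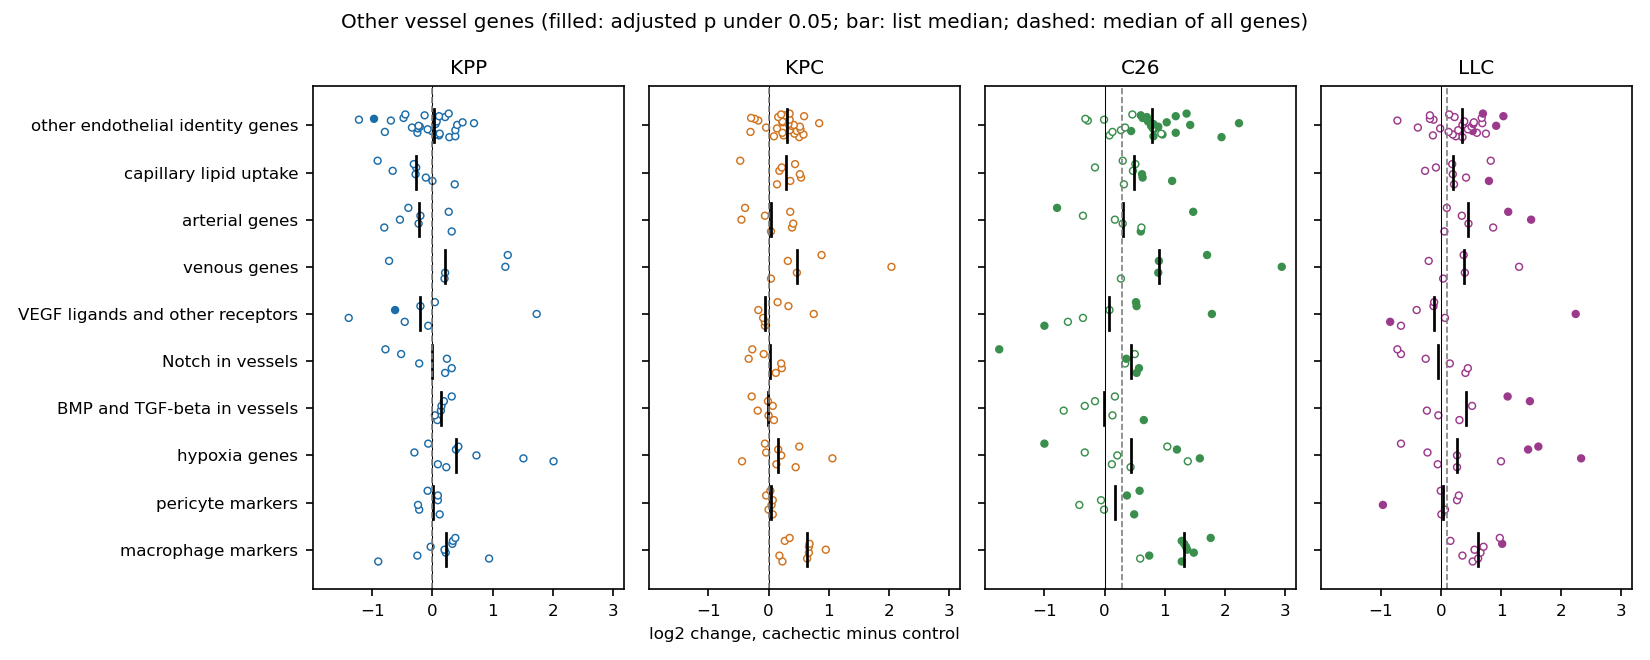
Log2 change, cachectic minus control (horizontal axes), of each gene in 10 lists of vessel genes and markers, 1 panel per model, with filled points for adjusted p under 0.05, bars for list medians and a dashed line for the median of all genes. The bar of the other endothelial identity genes lies at 0.79 in C26 and at 0.02 in KPP.

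Markers of other cells moved in the same libraries. Their counts stand beside 23.2% of all genes called higher in C26 (6.99% after centring) and 3.42% in LLC. Lower calls covered 1.07% of all genes in KPP, 3.66% in LLC and 5.12% in C26 (9.25% after centring). Pericyte markers, from the cells that wrap capillaries, summed to 868 to 1080 RPM over all libraries, with 926 to 950 in C26 controls and 1030 to 1080 in C26 cachectic libraries, where 3 of 6 rose (0 rose and 1 fell after centring). Lymphatic endothelial markers summed to 11.3 to 16.4 in C26 controls and 26.9 to 28.4 in C26 cachectic libraries, and 2 of 4 rose there (0 after centring). Erythroid markers, which reflect red cells in the tissue, summed to 144 to 164 in LLC controls and 1600 to 3300 in LLC cachectic libraries, where 6 of 6 rose. They were also higher without overlap in KPP (174 to 249 against 465 to 538), KPC (202 to 292 against 329 to 679) and C26 (255 to 272 against 382 to 1150). In that order, 0, 0 and 3 of 6 were called (0 in C26 after centring). Of all genes taken singly, 28.9% lay higher without overlap in KPP, 15.8% in KPC and 59.6% in C26. Higher calls covered 0.707% of all genes in KPP, and in KPC 0% were called in either direction. Fibroblast markers summed to 456 to 494 in KPP controls against 249 to 336, and to 781 to 836 in LLC controls against 313 to 441. The sums were also lower without overlap in KPC (546 to 635 against 489 to 513) and C26 (925 to 1150 against 630 to 707). Of all genes taken singly, 29.7% lay lower without overlap in KPP, 22% in KPC, 16.9% in C26 and 23.6% in LLC. The fibroblast markers did not move as a set: 3 of 6 fell in KPP, 2 in LLC and 0 in KPC. In C26, 1 rose and 1 fell (0 and 1 after centring). Col1a1 changed by -3.55 in KPP and -4.21 in LLC, and Pdgfra by -0.1 and 0.04. The part of these cells in the changes of the 10 genes was not tested.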

How the data were processed

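RNA of 16 tibialis anterior samples was measured in 8 groups of 2. Reads were counted with featureCounts 1.4.5 on GRCm38 and limma was used, per the submitters' processing notes; for the aligner, annotation, strand setting and gene filter, the sources used here give nothing. The deposited values are log2 RPM with an offset of 0.5 read, and whole reads were recovered from 100% of them (tolerance 0.0001).

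Symbols matched 11990 of 12021 identifiers. Limma 3.58.1 in R 4.3.3 was fitted to all genes with 8 group means, a shared spread and a mean-variance trend, p-values were adjusted over all genes (Benjamini-Hochberg), and 95% intervals came from the same fit. This was tested on simulated data. An exact permutation test of 2 libraries against 2 cannot pass the threshold and was not used. The 10 genes, the lists and the named genes (at most 4 per list with the smallest p, and the main ligands whatever their values) were chosen with earlier results of these data known. Alternatives covered scaling, filter, variance model, read weights, samples in the fit, replicate block and leaving out libraries.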

Additional observations from a re-analysis of the deposited data

How the results depend on the processing

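Depth limits Aplnr most, with 51 reads in its lowest library, and 2 libraries per group limit every call; where a left-out library leaves 1 in a group, that one is assumed to vary like the others.

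Settings other than leaving out 1 library gave 540 values for single genes. They included the threshold of 0.10, which reuses the same fit and can only add calls. All gained calls came from it, from fits of only 1 model, or from leaving out KPC cachectic 2 and LLC cachectic 1 together. Of these 540 values, 494 kept their direction and side of the threshold, 20 lost a call, 20 gained one and 6 reversed. Of 320 with 1 library left out, 283 kept both, 25 lost a call, 3 gained one and 9 reversed. The number of the 10 genes called in KPP was 1, beside 214 of all 12021 genes. It was 4 at an adjusted p under 0.10 (887 of all genes) and 4 with only KPP libraries (1124 of all genes). In C26 it was 6, beside 3409 of all genes. With other scaling it was 3 under quantile normalization (2052 of all genes), 3 with centring (1952) and 3 when scaled on median gene-wise differences (2003). In LLC it was 3, beside 851 of all genes. It was 1 under quantile normalization (946 of all genes) and 0 with only LLC libraries (0 of all genes). Leaving out KPC cachectic 2 and LLC cachectic 1 together was an alternative chosen after seeing the data. It leaves 1 library in each of these groups, and the number of all genes called moved as well. For that fit the counts for the 10 genes are therefore not given. With 1 library left out they ranged from 0 to 1 in KPP, 0 to 3 in KPC, 0 to 5 in C26 (0 without C26 control 1), 0 to 2 in LLC and 0 to 2 for the difference between effects, and stayed at 6 for the mean of the models. The cause was not tested.

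Quantile normalization reversed the mean change of Cdh5 (-0.01) and Tie1 (-0.01) and the LLC change of Egfl7 (-0.05). The C26 change of Emcn was -0.06 under quantile normalization, -0.04 with centring and -0.08 with the median of differences. With 1 library left out, changes that reversed ranged from -0.06 to 0.18 for Pecam1 in KPP, -0.51 to 0.49 for Kdr, -0.17 to 0.17 for Egfl7 and -0.32 to 0.31 for Aplnr in KPC, and -0.53 to 0.05 for Emcn in LLC.

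Replicate numbers did not pair the samples: replicate differences of control and cachectic groups correlated at -0.037 to 0.089 over genes. With the replicate block the counts were 1 in KPP, 0 in KPC, 4 in C26, 2 in LLC and 6 for the mean. In the same order, 53, 0, 2545, 477 and 4404 of all 12021 genes were called in that fit.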

Other observations

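Other vessel-related lists held a few large changes. Their counts stand beside 23.2% of all genes called higher in C26 (6.99% after centring) and 3.42% in LLC. In C26, 5.12% of all genes were called lower (9.25% after centring). In either direction, 1.78% of all genes were called in KPP and 0% in KPC. Hes1, a target of Notch signalling, fell in C26 by 1.75 ± 0.27 on the log2 scale (limma, adjusted p = 0.00331), while Notch1, Notch4 and Jag2 rose there (0.36 to 0.57), calls that were lost after centring. Id1 and Id3, targets of BMP signalling, rose in LLC by 1.48 ± 0.24 (adjusted p = 0.0098) and 1.11 ± 0.20 (adjusted p = 0.0147), and 0 of the 6 listed BMP and TGF-beta genes were called in KPP or KPC. Of 9 hypoxia genes, 3 rose in LLC (Egln3 by 2.33 ± 0.53, Ankrd37 by 1.45 ± 0.35 and Bnip3 by 1.62 ± 0.43), 2 rose and 1, Vegfa, fell in C26 (0 rose and 2 fell after centring), and none was called in KPP or KPC. Angptl4, a secreted inhibitor of lipoprotein lipase, rose in C26 by 3.39 ± 0.82 (adjusted p = 0.0148).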
